A study of Homo sapiens with 10 samples.

Results

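Immune checkpoint ligands are surface or secreted proteins with which a cell holds back the immune cells that touch it. The 9 genes described here are PDCD1LG2, CD274, CD276, VTCN1, PVR, NECTIN2, NECTIN3, CD47 and LGALS9, taken by gene symbol from the 17492 genes with a value. Each of the 9 was measured by 1 probe set. The list was drawn up after the deposited log2 values of doxycycline against vehicle tumours had been analysed, and it was selected on that comparison, among whose results were those of PDCD1LG2. The members' values are therefore a description, and the p-values printed beside them support nothing.

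The tumours were xenografts of the established human melanoma line A375 under the skin of BALB/c nude mice. Mice drank doxycycline or its vehicle once tumours reached 100 mm3, and tumours were excised 7 days later. Doxycycline switched on Omomyc, a dominant negative fragment of MYC, in the tumour cells. The 5 vehicle and the 5 doxycycline tumours, 1 array each, came from the same line, and no doxycycline-treated tumour lacking Omomyc was analysed here, so Omomyc and doxycycline itself cannot be told apart. The vector that carries Omomyc, and whether the cells were 1 clone, is information not given in the sources used here. Nude mice lack a thymus and with it mature T cells, but keep macrophages and natural killer cells. The host's RNA is part of each tumour and can hybridise to human probes. Labels give no batch or date.

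As background, PDCD1LG2 (PD-L2) and CD274 (PD-L1) bind PD-1 on T cells and dampen their response, and interferon gamma, acting through JAK1, JAK2 and IRF1, is the best known inducer of CD274. PDCD1LG2 is known to answer to it as well as to interleukins 4 and 13. PVR (CD155), NECTIN2 (CD112) and NECTIN3 (CD113) are adhesion proteins of the nectin family. They are read by the inhibitory receptors TIGIT, CD96 and PVRIG and by the activating receptor CD226, in differing combinations. CD47 binds SIRPA on macrophages and restrains engulfment, and galectin-9, the product of LGALS9, is a ligand of TIM-3.

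Levels are log2 expression values from RMA, so a difference of 1 is a doubling, and changes are doxycycline minus vehicle. Over all 17492 genes, limma with Benjamini-Hochberg adjustment called 880 higher and 1041 lower at an adjusted p under 0.05, together 11.0% of genes, with a median change of 0.017. Correlations between arrays were 0.979 to 0.987 among vehicle arrays and 0.965 to 0.985 among doxycycline arrays. Nothing in the labels says how the biological replicas were raised, so whether the tumours are independent is not known. The p-values set the group difference against the spread between these tumours. Of 11 measured melanoma markers 0 were called (1 higher and 1 lower at an unadjusted p under 0.05). Over the alternative fits, 0 to 2 of them were called higher and 0 to 1 lower. SOX10, a lineage factor of melanocytes, had a mean of 7.40 ± 0.15 with vehicle and of 7.48 ± 0.57 with doxycycline (SD, 5 arrays a group). The pigmentation genes TYR and TYRP1 lay below the lower quartile of all probe sets on every array. Doxycycline array 5 stood apart, with the lowest mean over the melanoma markers, -0.28 relative to vehicle, and the highest over 10 endothelial markers, 0.50.

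Of the 9 ligands, 1 was higher, PDCD1LG2, and 1 was lower, PVR, where 5.03% of all genes were higher and 5.95% lower, 11.0% in either direction. Nothing is read from that count, since the members were chosen from the same contrast. The other 7 were not called. The median change of the 9 was 0.038. PDCD1LG2 was also the single member whose doxycycline arrays all lay on one side of the vehicle arrays. They lay all above in 5.38% of genes and all below in 6.43%, 11.8% together.

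**Figure D1:**
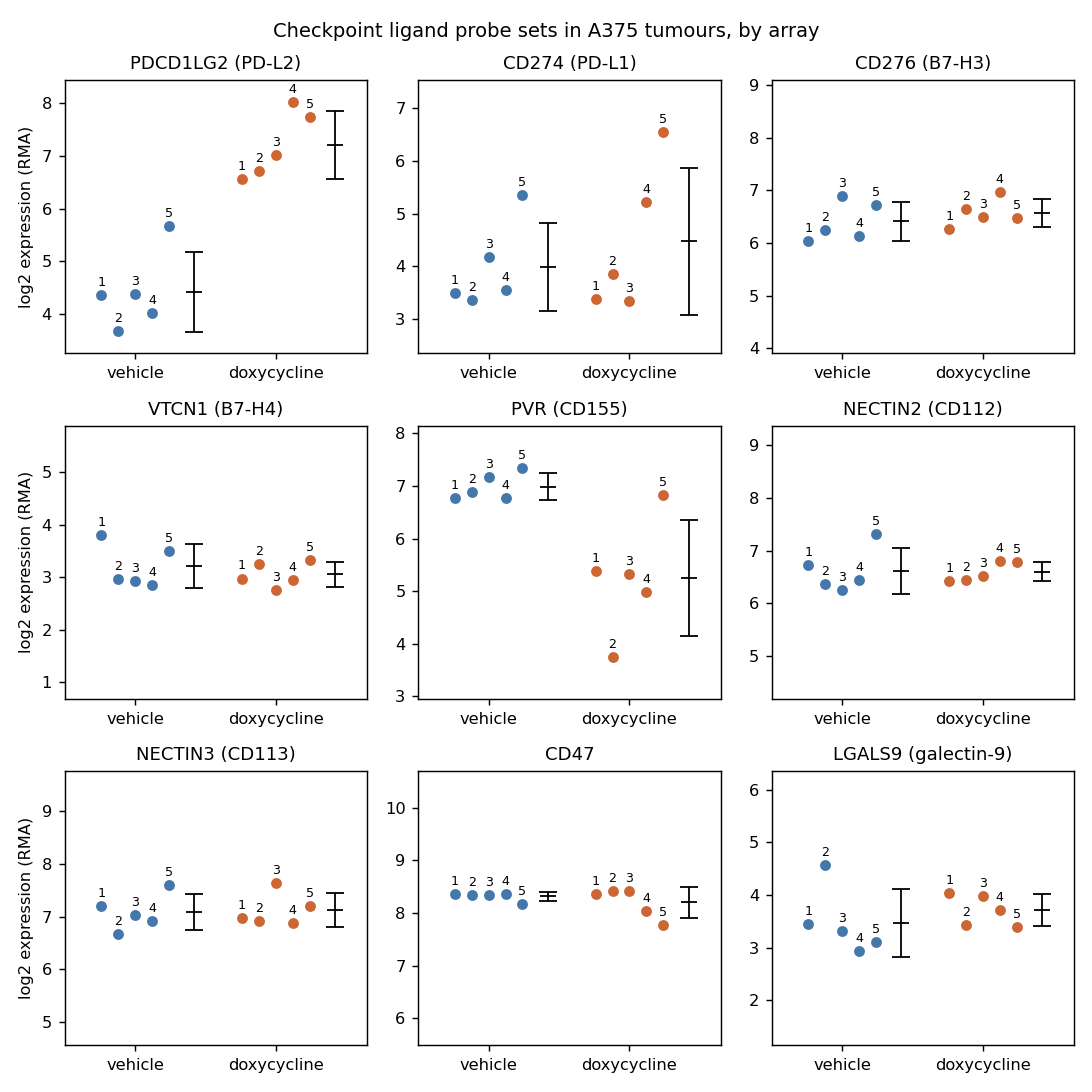
Log2 expression of the 9 checkpoint ligands on each array (points, numbered by replicate) in vehicle and doxycycline tumours, with group means and SD (bars, n = 5); every panel spans the same log2 range. PDCD1LG2 is separated between groups (4.42 against 7.21), PVR is lower on 4 doxycycline arrays, and CD274 spreads widely within both groups.

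PDCD1LG2 was at 4.35, 3.67, 4.37, 4.03 and 5.67 on vehicle arrays 1 to 5 and at 6.57, 6.71, 7.03, 8.03 and 7.74 on doxycycline arrays 1 to 5. The groups did not overlap, and the highest vehicle array, 5, stayed below the lowest doxycycline array, 1. In means, PDCD1LG2 rose from 4.42 ± 0.76 to 7.21 ± 0.64 (SD, n = 5 each), by 2.79 (95% CI 1.99 to 3.60), which is 6.94-fold, the rise ranked 6 among all genes (limma, adjusted p = 0.000615). It was called in all 19 alternative fits, with changes of 2.35 to 3.11.

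PD-L2 is made by macrophages and dendritic cells as well as by some tumour cells, so their markers were read beside it. Of 19 macrophage and monocyte markers 2 rose, LYZ by 1.28 and CD14 by 0.79, and 0 fell. For all genes the shares were 5.03% called higher and 5.95% lower. CD14 was no longer called when vehicle array 1, 3 or 4 (adjusted p = 0.0638, 0.0524 and 0.0629) or doxycycline array 4 (0.0560) was left out. The mean over the list ran from 4.16 to 4.38 in vehicle and from 4.28 to 4.64 in doxycycline tumours. Of 12 dendritic cell markers 0 rose (1 at an unadjusted p under 0.05) and 1 fell, BATF3, by 0.68; this call was lost in 7 of the 10 fits that left out 1 array, all but those without vehicle array 1 or doxycycline array 4 or 5. Their means ran from 3.57 to 3.88 and from 3.57 to 3.96, and FLT3, CLEC9A, CD1C, CCR7 and CCL22 lay below the lower quartile on every array. Doxycycline arrays 4 and 5, the highest for PDCD1LG2, were also the highest for macrophage markers, at 0.39 and 0.36 relative to vehicle. The called markers did not follow that order: LYZ was lowest on array 5 among doxycycline arrays (6.57), and CD14 was highest on array 3 (5.06). Arrays 1 to 3 were at 0.11, 0.064 and 0.036, no higher than the top of the vehicle arrays (-0.088 to 0.13). With arrays 4 and 5 left out, PDCD1LG2 was higher by 2.35 (limma, adjusted p = 0.00401; 0.000182 to 0.0131 over its alternatives). In bulk tissue, a change in the number of cells of a type and a change in RNA per cell cannot be told apart. Host macrophages here are mouse cells, and how far these human probe sets read their RNA was not tested. The part of such cells in the rise of PDCD1LG2 was not tested either.

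CD274 was at 3.48, 3.35, 4.18, 3.55 and 5.36 on vehicle arrays 1 to 5 and at 3.38, 3.86, 3.34, 5.22 and 6.55 on doxycycline arrays 1 to 5. Doxycycline arrays 1 to 3 lay in or just below the range of vehicle arrays 1 to 4, while arrays 4 and 5 and vehicle array 5 were high. The mean difference was 0.49 (95% CI -0.81 to 1.78), between means of 3.99 ± 0.83 and 4.47 ± 1.39 (SD, n = 5 each). Its limma adjusted p was 0.685, and the interval holds both a fall and a rise. Doxycycline array 5 alone set its sign, since without it the difference was -0.034. Without arrays 4 and 5 together it was -0.46.

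The arrays high for CD274 were high for PDCD1LG2 too. Vehicle array 5 was the highest of its group for both genes, and doxycycline arrays 4 and 5 the highest of theirs. Vehicle array 3 came next after array 5 for both, but for PDCD1LG2 only at 4.37 against 4.35 on array 1. For PDCD1LG2, doxycycline arrays 4 and 5 sat on top of a rise shared by all doxycycline tumours. For CD274, doxycycline arrays 1 to 3 (3.38, 3.86 and 3.34) lay around the vehicle median of 3.55. Relative to the vehicle mean, which vehicle array 5 raises, they were at -0.60, -0.12 and -0.64. CD47 ran the other way. It was between 8.35 and 8.37 on vehicle arrays 1 to 4 and at 8.17 on array 5, between 8.37 and 8.42 on doxycycline arrays 1 to 3, and at 8.05 and 7.76 on arrays 4 and 5. The means of CD47 differed by -0.12 (95% CI -0.43 to 0.20, adjusted p = 0.688). These orders describe 10 arrays and were not tested.

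**Figure D2:**
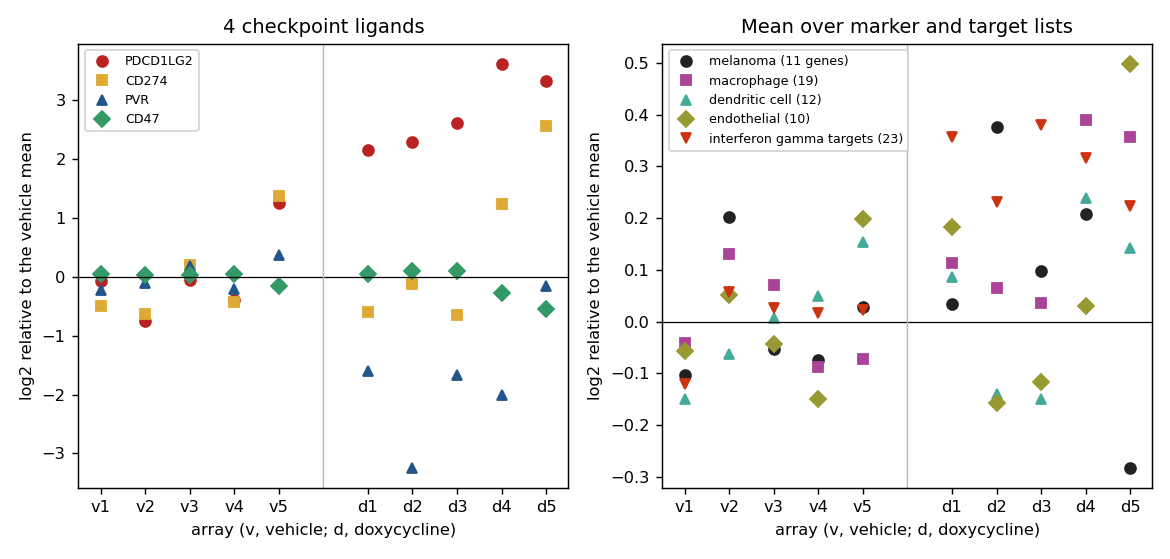
Left, log2 level relative to the vehicle mean of PDCD1LG2, CD274, PVR and CD47 on each array; right, the same for the mean over melanoma, macrophage, dendritic cell and endothelial markers and interferon gamma targets. Among doxycycline arrays, 4 and 5 are highest for PDCD1LG2, CD274 and macrophage markers and lowest for CD47; vehicle array 5 is also high for CD274 (1.38), and doxycycline array 5 keeps PVR near the vehicle level.

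PVR was at 6.77, 6.89, 7.16, 6.78 and 7.35 on vehicle arrays 1 to 5 and at 5.38, 3.75, 5.32, 4.99 and 6.83 on doxycycline arrays 1 to 5. Arrays 1 to 4 lay below every vehicle array, array 2 the lowest, and array 5 lay within the vehicle range. PVR fell by 1.74 on the log2 scale (95% CI -2.65 to -0.82), 3.33-fold, from 6.99 ± 0.26 to 5.25 ± 1.10 (SD, n = 5 each; limma, adjusted p = 0.0198). The SD of the doxycycline group was the larger, and a test per gene that allowed unequal variances did not call PVR (adjusted p = 0.139; 0.00112 to 0.139 over its alternatives). Without doxycycline array 5, the array with the lowest melanoma markers, PVR fell by 2.13; the part of that array's makeup in the result was not tested.

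NECTIN2 ranged from 6.24 to 7.31 in vehicle and from 6.42 to 6.79 in doxycycline tumours, and NECTIN3 from 6.67 to 7.60 and from 6.89 to 7.65, so the groups overlapped for both. NECTIN2 differed by -0.019 (95% CI -0.44 to 0.40) and NECTIN3 by 0.038 (95% CI -0.39 to 0.46). Neither interval reaches beyond 0.46 in either direction. NECTIN2 took the opposite sign in 4 of the 10 fits without 1 array and NECTIN3 in 3.

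CD276 (B7-H3), a B7 family ligand with no settled receptor, ranged from 6.04 to 6.89 in vehicle and from 6.26 to 6.97 in doxycycline tumours. It differed by 0.16 (95% CI -0.26 to 0.57). VTCN1 (B7-H4), which inhibits T cells, ranged from 2.85 to 3.81 and from 2.76 to 3.33, differed by -0.16 (95% CI -0.59 to 0.27) and lay below the lower quartile of probe sets on 9 of 10 arrays. LGALS9 ranged from 2.93 to 4.57 and from 3.39 to 4.04 and differed by 0.24 (95% CI -0.36 to 0.84). Vehicle array 2 was its highest array, and without it the difference was 0.51. VTCN1 and LGALS9 were among the dimmest 30% of genes, so these probe sets can show little of a fall.

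PDCD1LG2 and CD274 are adjacent genes on chromosome 9, and PVR and NECTIN2 lie near each other on chromosome 19, in RefSeq's annotation of GRCh38.p14. In each pair 1 gene was called and the other was not. Across all genes 5.03% were called higher and 5.95% lower. Of 26 measured genes of the 9p24 region, 4 were higher and 0 lower (5 and 2 at an unadjusted p under 0.05). Beside PDCD1LG2 these were CDC37L1, a partner of the HSP90 chaperone, by 0.69, the cytokine receptor kinase gene JAK2 by 0.67 and the plasminogen receptor gene PLGRKT by 0.67. The PLGRKT call was lost when vehicle array 2, 3 or 4 was left out (adjusted p = 0.0551, 0.0533 and 0.0504), and likewise for doxycycline array 4 (0.0512). PLGRKT lies next to CD274 on one side of the pair, and RIC1, next to PDCD1LG2 on the other, differed by -0.0090 (95% CI -0.38 to 0.36). The 5 genes between PVR and NECTIN2, looked up after the values of that pair were seen, are CEACAM19, CEACAM16, BCL3, CBLC and BCAM. BCL3 had no value, and the other 4 differed by 0.086 to 0.55, none called.

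**Figure D3:**
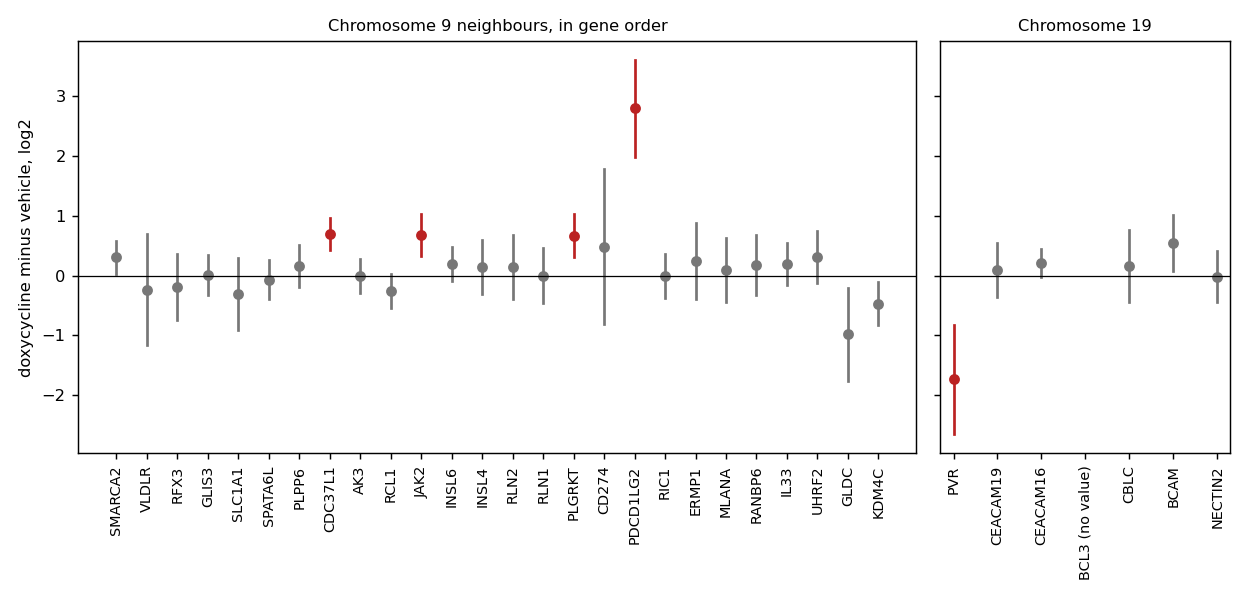
Change (point, doxycycline minus vehicle, log2) with its 95% interval (line) for 26 genes of the 9p24 region and for the genes from PVR to NECTIN2, in gene order without distances; red marks limma adjusted p under 0.05. PDCD1LG2 (2.79) stands next to CD274 (0.49) and RIC1 (-0.0090), and PVR (-1.74) shares its region with NECTIN2 (-0.019).

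Promoters from RefSeq were read for the 8 ligands with an entry, PDCD1LG2 having none. The 250 bases before the start of CD274 and of PVR are shown, on GRCh38.p14, plus strand, CD274 because interferon gamma is a known inducer of it and IRF1 was among the genes that rose, and PVR because it is the ligand that fell. CD274 is at chr9:5450292-5450541 and PVR at chr19:44643660-44643909. Capitals mark matches on either strand to an interferon-stimulated response element (2 copies of GAAA with any 2 bases between them), and PVR has none.
CD274: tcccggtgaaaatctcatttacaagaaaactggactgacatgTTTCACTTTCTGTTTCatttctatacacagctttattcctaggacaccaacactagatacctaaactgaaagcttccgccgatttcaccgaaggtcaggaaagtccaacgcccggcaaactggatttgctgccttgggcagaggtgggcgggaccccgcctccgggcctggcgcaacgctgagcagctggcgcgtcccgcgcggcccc
PVR: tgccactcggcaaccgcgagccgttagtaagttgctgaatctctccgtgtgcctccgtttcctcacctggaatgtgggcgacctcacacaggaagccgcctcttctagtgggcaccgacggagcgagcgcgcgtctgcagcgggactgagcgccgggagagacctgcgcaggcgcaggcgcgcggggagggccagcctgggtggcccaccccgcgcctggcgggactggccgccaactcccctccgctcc

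The capital run in CD274 holds 2 overlapping response element matches, at bases 208 to 199 and 202 to 193 before the start. Among 35116 promoters of the same length, 3.02% held the response element, and CD274 was the only one of the 8 ligands with it. The MYC-type E-box CACGTG (6.34% of promoters) and the AP-1 motif TGANTCA (6.57%) were in none of the 8. A match is a string of letters in this window and not a bound site.

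The rest of the B7 family, the nectins and the galectins moved in single members. NCR3LG1 (B7-H6), a ligand of the natural killer cell receptor NKp30, was at 6.50, 6.25, 6.50, 6.57 and 6.0 on vehicle arrays 1 to 5 and at 4.68, 5.29, 5.26, 5.57 and 4.68 on doxycycline arrays 1 to 5, without overlap. It fell by 1.27 (95% CI -1.69 to -0.85, adjusted p = 0.00154). Together with PDCD1LG2, a member chosen from this contrast, 2 of 10 measured B7 family genes were called, against 11.0% of all genes. Over all genes, 6.43% had every doxycycline array below every vehicle array. The costimulatory ligands CD80 and CD86 differed by -0.014 and 0.29 and were not called, CD80 changing sign in 5 of the fits without 1 array. CD86 lay below the lower quartile of probe sets on every array. Both were among the dimmest 30% of genes, so these probe sets can show little of a fall.

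CADM1, a nectin-like adhesion protein and ligand of the lymphocyte receptor CRTAM, rose by 1.38 (95% CI 0.79 to 1.97, adjusted p = 0.00635). Its doxycycline arrays, at 4.93 to 6.30, all lay above its vehicle arrays, at 3.81 to 4.74. With PVR, a member chosen from this contrast, 2 of 8 measured nectins and nectin-like genes were called, in opposite directions. With unequal variances neither was (CADM1 adjusted p = 0.0516). Over all genes 5.03% were called higher and 5.95% lower, and 5.38% had every doxycycline array above every vehicle array. Of 9 galectins LGALS3, which binds LAG3 among many partners, fell by 0.48 (adjusted p = 0.0273) and 0 rose (1 at an unadjusted p under 0.05). That call ended when vehicle array 1 or 3, or doxycycline array 1, 3 or 5, was dropped (adjusted p = 0.0520 to 0.0749), and with the replicate number as a block (0.0722).

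**Figure D4:**
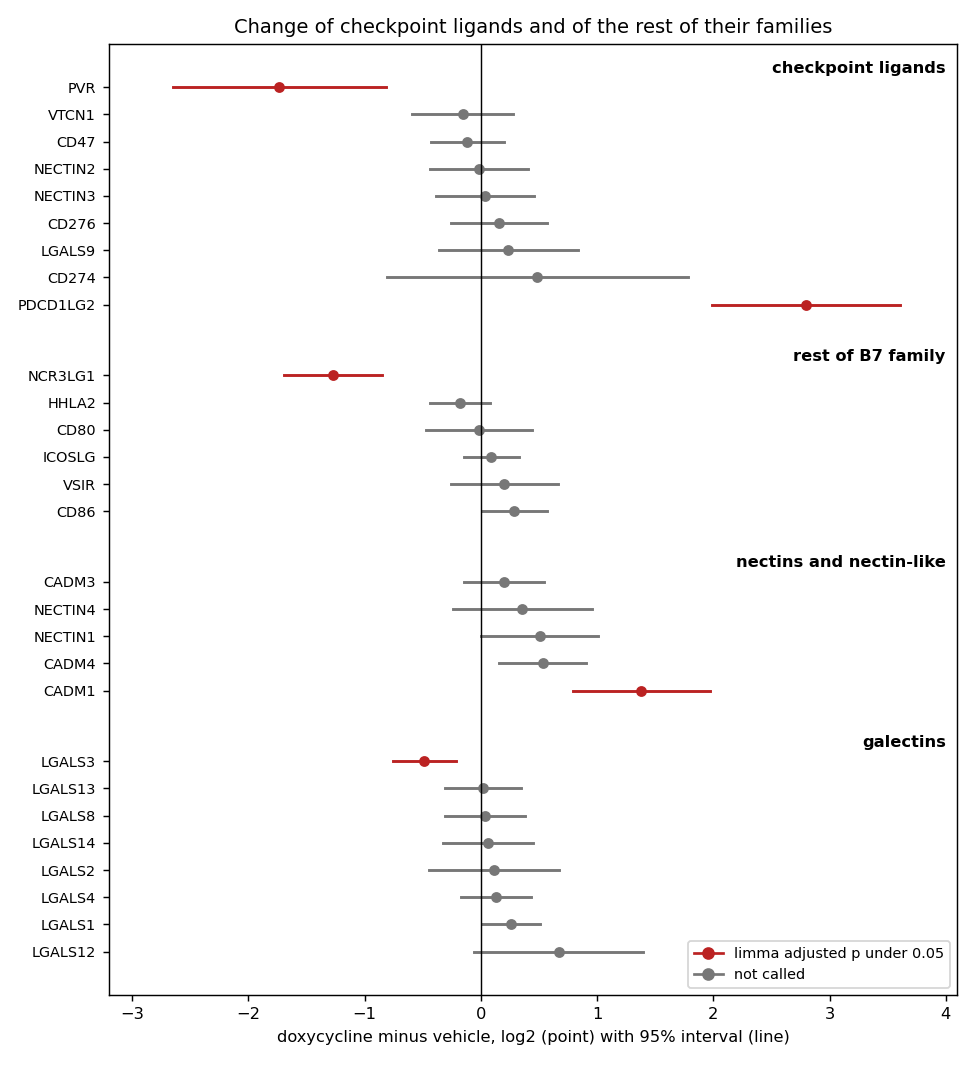
Change (point, doxycycline minus vehicle, log2) with its 95% interval (line) for the 9 checkpoint ligands and for other B7, nectin, nectin-like and galectin genes; red marks limma adjusted p under 0.05. Beside PDCD1LG2 and PVR, the called genes are NCR3LG1 (-1.27), CADM1 (1.38) and LGALS3 (-0.48).

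Among 8 costimulatory ligands, which drive rather than restrain T cells, 1 rose and 0 fell. Of all genes 5.03% were called higher and 5.95% lower, and 5.38% had every doxycycline array above every vehicle array. TNFSF18, the ligand of GITR, was at 1.83, 3.12, 2.89, 3.11 and 1.95 on vehicle arrays 1 to 5 and at 4.45, 5.08, 4.96, 3.47 and 4.94 on doxycycline arrays 1 to 5. It rose by 2.00 (95% CI 1.24 to 2.75, adjusted p = 0.00326), and the groups did not overlap. All its vehicle arrays and doxycycline array 4 lay below the lower quartile of probe sets, and it was among the dimmest 30% of genes, so the size of the change is measured from near the floor. Of 20 further molecules, a mixed list of inhibitory ligands with others such as CD58, FAS and B2M, 1 rose and 1 fell. B2M, the light chain of MHC class I, which presents antigen, rose by 0.59, and LGALS3, already given, fell. NT5E (CD73), which makes adenosine, differed by -0.52 (adjusted p = 0.0585).

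Receptors of checkpoint ligands, those of the 9 and others of the same classes such as CTLA4 and LAG3, were read in the same tumours. As above, 5.03% of all genes were called higher and 5.95% lower. Of 17 measured receptors and binding partners 2 rose and 0 fell (3 and 1 at an unadjusted p under 0.05), and 8 of the 17, among them CD226, CTLA4 and LAG3, lay below the lower quartile of probe sets on every array. CD96, a receptor of PVR, rose by 0.71 (adjusted p = 0.0189), with vehicle arrays at 7.24 to 7.49, doxycycline arrays 1 to 4 at 8.13 to 8.30 and array 5 at 7.40, so that array 5 was near the vehicle level for CD96 as for PVR. With unequal variances CD96 was not called (adjusted p = 0.0892). THBS1, a matrix protein that binds CD47, rose by 1.08 (adjusted p = 0.0231). That call was lost on dropping vehicle array 1, 3 or 4, or doxycycline array 1 or 4 (adjusted p = 0.0536 to 0.0618), and with the replicate number as a block (adjusted p = 0.0568). SIRPA, the receptor of CD47, differed by 0.26 (95% CI -0.08 to 0.60), and PDCD1 had no value.

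Of 33 measured regulators of these ligands 4 rose and 0 fell (9 and 0 at an unadjusted p under 0.05), with a median change of 0.24 against 0.017 over all genes. Among all genes 5.03% were called higher and 5.95% lower, and no share was counted at the unadjusted threshold. IRF1 rose by 1.38, JAK2 by 0.67 and JAK1 by 0.44. JAK2 was not called with unequal variances (adjusted p = 0.0562) or without doxycycline arrays 4 and 5 (0.0619). The fourth was the MYC probe set, by 1.34, and whether that probe set also reads Omomyc was not tested. JAK1 lost its call without any one of vehicle arrays 1, 3 and 4 and doxycycline arrays 2, 4 and 5 (adjusted p = 0.0511 to 0.0827). IRF1 was at 4.54 to 5.52 in vehicle and 6.22 to 6.79 in doxycycline tumours, array 4 the highest. CMTM6, which keeps PD-L1 at the cell surface, differed by 0.13 (95% CI -0.15 to 0.41). IL4R and IL13RA1, receptor chains for interleukins 4 and 13, differed by 0.33 (adjusted p = 0.112) and -0.030 (adjusted p = 0.936).

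Shares over all genes were 5.03% called higher and 5.95% called lower. Of 23 interferon gamma targets 4 rose and 0 fell (9 and 0 at an unadjusted p under 0.05), with a median of 0.24: IRF1, the class II transactivator CIITA by 0.82, APOL6 by 0.75 and the peptide-loading factor TAPBP by 0.61. The test with unequal variances called 1 of them in place of 4, TAPBP lost its call without doxycycline arrays 4 and 5 (adjusted p = 0.0609), and APOL6 with the replicate number as a block (0.0524). IRF1 stands in both this list and that of the regulators. CXCL9, CXCL10, CXCL11, IDO1, GBP4 and GBP5 lay below the lower quartile on every array. The mean over the targets, relative to vehicle, was 0.36, 0.23, 0.38, 0.32 and 0.22 on doxycycline arrays 1 to 5 and -0.12 to 0.056 on vehicle arrays, without overlap. Among doxycycline arrays, 1 and 3 were the highest for these targets and 4 and 5 for CD274. Whether the orders are related was not tested.

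**Figure D5:**
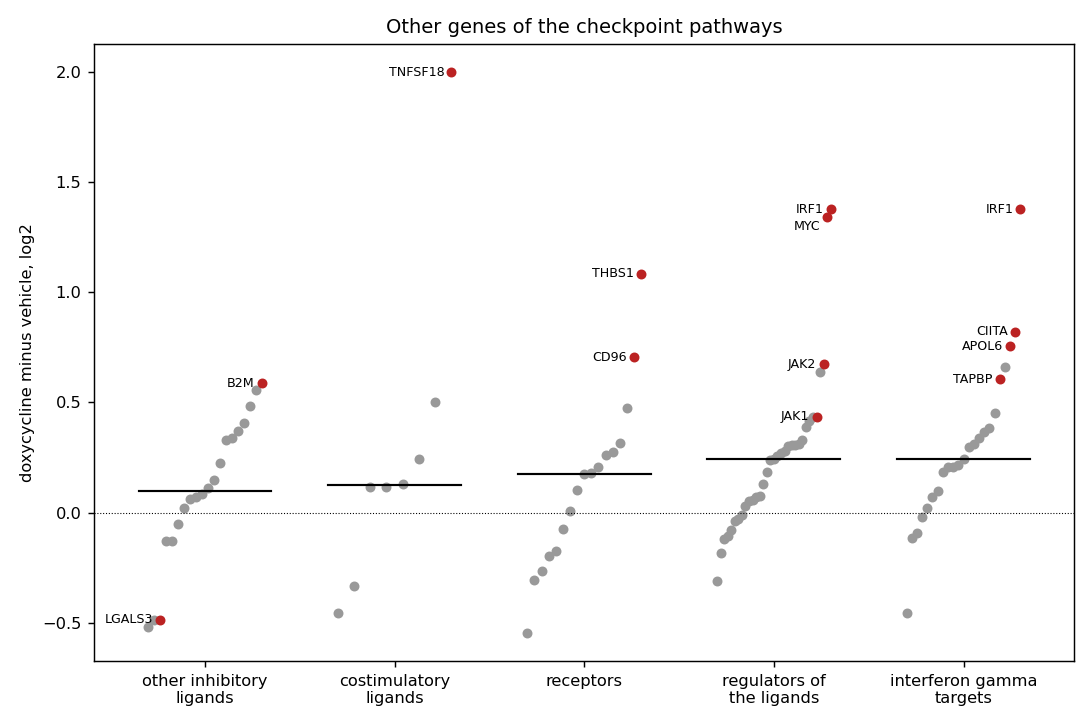
Change of each gene (point, doxycycline minus vehicle, log2) in 5 lists of checkpoint pathway genes, ordered by size within a list; bars are list medians and red points with names are genes with limma adjusted p under 0.05. TNFSF18 (2.00) and IRF1 (1.38) are the highest named points, and the genes not called lie between -0.55 and 0.66. The list labelled other inhibitory ligands is mixed and also holds molecules such as B2M.

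The 5 genes whose profile over the 10 arrays, relative to the vehicle mean, was nearest to that of PDCD1LG2 were PRKAG2, ABCA1, DKK1, LURAP1L and ADAMTS6. Their root mean square differences from it were 0.51, 0.55, 0.63, 0.69 and 0.70. PRKAG2, a regulatory subunit of the energy sensor AMPK, rose by 2.24 and DKK1, a secreted inhibitor of WNT signalling, by 2.81. Both shared with PDCD1LG2 a high vehicle array 5, at 1.21 and 2.09 against 1.25, and their highest values were on doxycycline arrays 4 and 5. ABCA1, which exports cholesterol, rose by 2.91 and LURAP1L by 3.03, with doxycycline arrays within 2.70 to 3.34 and 2.72 to 3.39. ADAMTS6, a matrix protease, rose by 2.15, and it was no longer called after dropping vehicle array 2, 3 or 4, or doxycycline array 4 (adjusted p = 0.0514 to 0.0577). Nearness in this measure favours genes with a change of like size.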

How the data were processed

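The authors deposited log2 values, which per the submitters' processing notes come from RMA. RMA version, array model and genome build: not given in the sources used here. Of 18569 probe sets 17511 had 1 gene symbol, 0 several and 1058 none, and all 17511 matched RefSeq by Entrez identifier. For 17 genes with more than 1 probe set the one with the highest mean was kept, leaving 17492 genes.

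Groups were compared by a two-sided limma 3.58.1 fit (R 4.3.3) on 10 arrays, p-values being adjusted after Benjamini and Hochberg across every gene. Array number limits the precision. Lists were described by counts and medians, to be read beside the 5.03% of all genes called higher and the 5.95% called lower. At an unadjusted p under 0.05 no share over all genes was counted, so nothing is read from those counts. Of endothelial (10), fibroblast and pericyte (8), T and NK cell (11) and B cell (5) markers 0 were called by the main limma fit. At an unadjusted p under 0.05 these lists had 0 higher and 0 lower, 2 and 3, 0 and 1, and 0 and 1. Over the alternative fits, 0 to 1 fibroblast and pericyte markers were called higher and 0 to 3 lower. For T and NK cell markers 0 to 1 were called lower, and endothelial and B cell markers stayed at 0.

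Members and lists were chosen with earlier results of these data known. Named are the members, called genes of each list, genes with defining roles and the 5 profiles nearest to PDCD1LG2; RIC1, NT5E, IL4R, IL13RA1, SOX10, TYR, TYRP1, the genes between PVR and NECTIN2 and those named as below the lower quartile were picked after their values were seen. Alternatives changed the moderation, array weights, normalization, dim genes, probe sets, test, minimum change (1.5-fold), a replicate block and the arrays left out. Same-numbered arrays deviated together little (correlations -0.063 to 0.19), so numbers were not taken as pairs.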

Additional observations from a re-analysis of the deposited data

Results flagged for a closer look

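Single arrays lay far from the other 4 of their group in 8 of 76 gene-by-group sets tested with Dixon's ratio, where chance flags about 1 in 20. CD47 on vehicle array 5 was low, 8.17 against 8.35 to 8.37 on the others. CD96 on doxycycline array 5 was low, 7.40 against 8.13 to 8.30, and LYZ on the same array was low, 6.57 against 7.22 to 7.40. TAPBP on vehicle array 3 was high, 7.46 against 7.23 to 7.29. BATF3 on vehicle array 1 was low, 5.37 against 5.92 to 6.06, and CD226 on vehicle array 3 was low, 2.06 against 2.40 to 2.51. PRKAG2 and DKK1 on vehicle array 5 were high, 6.95 against 5.24 to 5.71 and 7.09 against 4.07 to 4.90. PRKAG2 and DKK1 were named for profiles near that of PDCD1LG2, which was itself high on vehicle array 5, so their values there are no separate observation.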

How the results depend on the processing

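PDCD1LG2 kept its direction and its call in all 19 alternative fits, and PVR in 18. With Welch's test PVR, at -1.74, missed the threshold (adjusted p = 0.139), leaving 0 members lower, and 1 was lower at an unadjusted p under 0.05. Among the genes named, CADM1, CD96, THBS1, JAK2, TAPBP, CIITA, APOL6, PLGRKT, CD14, BATF3, DKK1 and ADAMTS6 lost their calls with it too. That test also called 578 genes higher in place of 880 and 706 lower in place of 1041. The cause was not tested, since Welch's test changed both the moderation and the variance model. Without 1 array, 595 to 908 were higher and 768 to 1012 lower. Uncalled members near 0 changed sign. Without 1 array, CD274 differed by -0.034 to 0.83, NECTIN2 by -0.11 to 0.16, NECTIN3 by -0.093 to 0.17 and CD80 by -0.13 to 0.13. Without doxycycline arrays 4 and 5, CD274 differed by -0.46, CD47 by 0.081 and CD80 by 0.11. With array weights CD80 differed by 0.059. With the replicate number as a block, 755 genes were higher and 886 lower, PDCD1LG2 had an adjusted p of 0.00146 and PVR of 0.0154, and LGALS3, THBS1, JAK1, APOL6 and CD14 lost their calls among the genes named. Values near the arrays' floor, as for VTCN1, limit what a fall could show.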
